A study of Rattus norvegicus with 40 samples.

Results

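The early hepatic response of Long-Evans (L-E) rats to TCDD (dioxin) was examined in the 4 livers taken 3 h after the dose, set against the 4 livers of L-E rats given corn oil and taken at 19 h. The 8 arrays were chosen by their sample titles from 40 in the series, and the corn oil arrays at 19 h are the only controls of this strain. Affymetrix RAE230A arrays, each holding the liver RNA of 1 rat, were run for 2 strains and for 2 lines bred from them, to compare rats that differ in their sensitivity to dioxin. L-E rats carry a wild-type aryl hydrocarbon receptor (AHR), as do rats of Line-C (LnC), whereas the receptor of Han/Wistar (H/W) rats lacks a piece of the transactivation domain. All rats were males of 10 to 12 weeks. The L-E TCDD group at 3 h had received 100 µg/kg TCDD once by gavage, the L-E corn oil group had received the vehicle by the same route, and the L-E TCDD group at 19 h, used below for later values, had received the same dose of TCDD. The 4 H/W rats at 3 h after this dose and the 4 H/W corn oil rats at 19 h, and the 4 LnC TCDD and 4 LnC corn oil rats at 19 h, were used for comparison.

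The AHR is a ligand-activated transcription factor that waits in the cytoplasm with heat shock proteins. Upon binding TCDD it enters the nucleus, pairs with ARNT and binds DNA elements with the core GCGTG near genes such as Cyp1a1, whose products oxidize foreign compounds. The liver also carries a circadian clock and genes that follow meals, such as those of fat, cholesterol, bile acid and amino acid metabolism, so that many hepatic mRNAs depend on the hour and on the last meal as well as on treatment.

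Without a corn oil group at 3 h, TCDD, the interval since gavage, the hour of dosing and the scan day cannot be told apart. The 4 TCDD arrays at 3 h were all scanned on day 5 of the series, together with the 4 H/W arrays at 3 h, whereas 1 L-E corn oil array was scanned on day 1 and 3 on day 2. The labels give one morning window of harvest for both intervals, while the study's methods state it for the 19 h rats. Whether the rats differed in the hour of harvest or in their last meal was therefore not tested. Each treatment group shared 1 cage, so that cage and group cannot be told apart either. The LnC comparison at 19 h has controls of the same interval and a single scan day and shares no array with the L-E comparison. For this reason LnC values are given beside those of L-E, although rats and interval differ.

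Arrays were alike in general quality. The median log2 signal was 3.54 to 3.57 in the TCDD arrays and 3.55 to 3.6 in the corn oil arrays, and each array correlated with the others of its group at 0.995 to 0.996 on average. The 3′ minus 5′ difference of the Gapdh control probes was 0.14 to 0.22 in the TCDD arrays and 0.20 to 0.29 in the corn oil arrays. The mean log2 signal of 16 hepatocyte markers was 13.80 to 13.94 at 3 h and 13.64 to 13.77 in corn oil. That of 21 markers of macrophages and other immune cells was 6.04 to 6.5 and 5.72 to 6.09, with 5 markers in each group at or under the lowest array median (3.52), and that of 19 stellate and endothelial markers 5.15 to 5.33 and 4.95 to 5.17, with 7 such markers. Markers of blood, pancreas and fat (20) were at 3.70 to 3.79 and 3.83 to 3.95, with 15 such markers, and 6 bile duct markers at 3.20 to 3.36 and 3.22 to 3.28, with 5. Of the genes of these 5 lists, 1 hepatocyte marker (Cyp2e1) was called lower and none of the others were called in either direction. With 2.52% of all genes called, so few calls are not a result about these lists. TCDD arrays lay above all corn oil arrays in 3 hepatocyte, 4 immune and 2 stellate and endothelial markers. They lay below them in 2 hepatocyte, 3 stellate and endothelial and 2 blood, pancreas and fat markers. Over all genes it was 8.81% above and 8.74% below. In bulk liver, fewer cells of a type and less RNA per cell cannot be told apart, and the part of these marker levels in the results was not tested.

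Promoter windows are shown for the genes called at 3 h among the classic AHR targets and the clock genes that hold a motif searched for their group, to show where it lies. The windows of the RefSeq table (assembly GRCr8) run from 250 bases before to 50 bases after the start of a gene. Capitals mark the AHR core (GCGTG or its reverse complement CACGC) in Tiparp and Nqo1, and the D-box (TTATGTAA or TTACATAA), bound by clock-controlled factors, in Per2. Tiparp lies on the plus strand at chr2:152063519-152063818, Nqo1 on the minus strand at chr19:52220218-52220517, and Per2 on the minus strand at chr9:99496944-99497243.
Tiparp: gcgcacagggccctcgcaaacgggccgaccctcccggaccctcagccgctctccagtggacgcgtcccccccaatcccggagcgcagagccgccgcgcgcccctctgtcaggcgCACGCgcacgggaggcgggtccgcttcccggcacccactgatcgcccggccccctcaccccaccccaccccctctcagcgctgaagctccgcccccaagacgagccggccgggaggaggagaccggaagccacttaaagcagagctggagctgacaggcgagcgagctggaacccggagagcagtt
Nqo1: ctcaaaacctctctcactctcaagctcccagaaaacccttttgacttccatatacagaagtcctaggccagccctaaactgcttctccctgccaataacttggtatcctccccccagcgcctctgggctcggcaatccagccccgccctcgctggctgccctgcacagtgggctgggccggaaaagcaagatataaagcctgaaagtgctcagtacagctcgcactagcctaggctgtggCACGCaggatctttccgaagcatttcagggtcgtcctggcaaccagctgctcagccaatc
Per2: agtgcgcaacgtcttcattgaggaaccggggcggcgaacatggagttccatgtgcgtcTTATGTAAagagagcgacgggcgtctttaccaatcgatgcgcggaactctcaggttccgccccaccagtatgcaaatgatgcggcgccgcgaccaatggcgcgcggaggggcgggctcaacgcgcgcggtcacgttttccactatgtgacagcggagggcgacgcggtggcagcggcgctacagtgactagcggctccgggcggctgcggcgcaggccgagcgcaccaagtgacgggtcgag
Relative to the gene start, the AHR core lies at position -136 in Tiparp and -10 in Nqo1, and the D-box at -192 in Per2. Of the 7 measured classic AHR targets, 5 had a window and 3 of these held the AHR core (Cyp1b1, Nqo1 and Tiparp), while 31.1% of 27457 windows of the table did. Among 11 clock repressors and D-box factors with a window, 3 held the E-box CACGTG (Bhlhe40, Bhlhe41 and Tef) and 1 the D-box (Per2), against 6.65% and 0.881% of all windows. The AHR core stood in 6 of these 11 clock windows as well (Bhlhe41, Csnk1e, Dbp, Nr1d1, Per3 and Tef), none of them called, so that the core did not set the AHR targets apart. The windows of Bmal1, Clock and Nfil3 held none of the 3 motifs. These matches are descriptions of letters, and other regions of the genes were not searched.

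At 3 h, TCDD livers differed from corn oil livers in 262 of 10411 genes (2.52%), with 139 higher (1.34%) and 123 lower (1.18%), at an adjusted p under 0.01 from limma, the threshold of the study. In all 262 the TCDD arrays did not overlap the corn oil arrays, as was the case for 17.5% of all genes (8.81% with TCDD higher and 8.74% with TCDD lower). The difference was at least 1 on the log2 scale in 118 genes, of which 69 were higher and 49 lower. In 11 of the 262 a group mean lay under 3.52, a range in which the size of a difference is uncertain. Quantile normalization gave 95 higher and 148 lower genes, so that the balance of directions depended on the scaling. The count fell to 113, 99 and 117 without TCDD replicate 1, 2 or 3, and to 116, 145 and 116 without corn oil replicate 1, 2 or 3.

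Classic AHR targets were the group with the highest median at 3 h among the lists examined. Of 7 measured members, 6 rose, as did 1.34% of all genes. The median log2 difference over all 7 was 2.13, while the median over all genes was -0.01. The study picked these 7 from genes that responded at 19 h in all 4 strains and lines. Its arrays include the L-E and H/W corn oil arrays, the L-E TCDD arrays at 19 h and both LnC groups used here. The direction of these 7 is therefore not independent evidence in any of these comparisons.

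Cyp1a1, which encodes the cytochrome P450 that serves as the standard read-out of AHR activity, had log2 signals of 14.11, 14.14, 14.19 and 13.97 in the TCDD rats and of 2.13, 2.14, 6.16 and 5.49 in the corn oil rats. All TCDD values were close together and far above the controls, which fell into a pair near the floor of the scale and a pair well above it, so that the size of the difference is uncertain. The difference of 10.12 had a standard error of 0.99 (adjusted p = 0.00245 from limma), and the call was lost without TCDD replicate 2 or 3 (up to 0.0111). At 19 h, when 214 genes of L-E rats were called against corn oil (2.06%, with 0.941% higher and 1.11% lower), the difference of Cyp1a1 was 10.55. It was 9.93 at 3 h in H/W rats and 9.45 in LnC rats. From 3 to 19 h the signal of L-E rats rose by a further 0.43 (adjusted p = 0.00777).

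Aldh3a1, an aldehyde dehydrogenase, was at 10.82, 10.79, 11.89 and 9.90 after TCDD and at 3.13, 3.11, 2.57 and 2.48 in corn oil. Every TCDD array was thus high, yet well under the values of 13.78 to 14.12 at 19 h. The difference at 3 h was 8.03 ± 0.41 (standard error, adjusted p = 0.000317 from limma), and the signal rose by a further 3.11 from 3 to 19 h (adjusted p = 0.00364). Its control signal lies under the lowest array median.

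Cyp1b1, another P450 of the AHR battery, followed another time course. Its TCDD arrays at 3 h read 6.46, 4.53, 5.01 and 4.45, and its corn oil arrays 3.79, 3.35, 3.39 and 3.35. The groups did not overlap, but the difference of 1.64 ± 0.44 (standard error) missed the threshold (adjusted p = 0.0679 from limma). At 19 h the same probe set read 12.21 to 13.55, which was 7.84 above the 3 h level (adjusted p = 0.000558). Among the classic targets Cyp1b1 therefore had the largest rise between the 2 intervals.

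Tiparp encodes an enzyme that attaches ADP-ribose to the AHR and limits its activity. It read 10.28, 9.06, 10.14 and 9.75 after TCDD and 5.84, 5.64, 6.85 and 5.74 in corn oil. The difference was 3.79 ± 0.36 (adjusted p = 0.00235 from limma), close to 4.32 at 19 h, and the step from 3 to 19 h of 0.53 missed the threshold (adjusted p = 0.417). Nfe2l2, which encodes the oxidative stress regulator NRF2, read 11.75, 11.41, 11.70 and 11.87 against 9.88, 9.57, 9.74 and 9.61. Its difference of 1.98 ± 0.11 (adjusted p = 0.000348) likewise stood near the 2.17 of 19 h. The step from 3 to 19 h of 0.18 missed the threshold too (adjusted p = 0.595).

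Nqo1, a quinone reductase under both AHR and NRF2, read 11.64, 11.31, 11.63 and 11.61 after TCDD and 9.66, 9.96, 9.24 and 8.82 in corn oil. It rose by 2.13 ± 0.24 (adjusted p = 0.00386 from limma), a call that was lost without any single one of 6 of the 8 arrays (up to 0.0161). In H/W rats the difference was 5.30, from corn oil values of only 3.66 to 6.83. The difference between the strains of -3.18 missed the threshold (adjusted p = 0.0808). Cyp1a2, a P450 with a high signal in the corn oil liver already (14.06 to 14.2), reached 14.82 to 14.96. Its difference of 0.77 ± 0.04 was small but exceeded the spread of either group (adjusted p = 0.000348), and the signal rose further by 0.50 at 19 h (adjusted p = 0.00274).

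**Figure D1:**
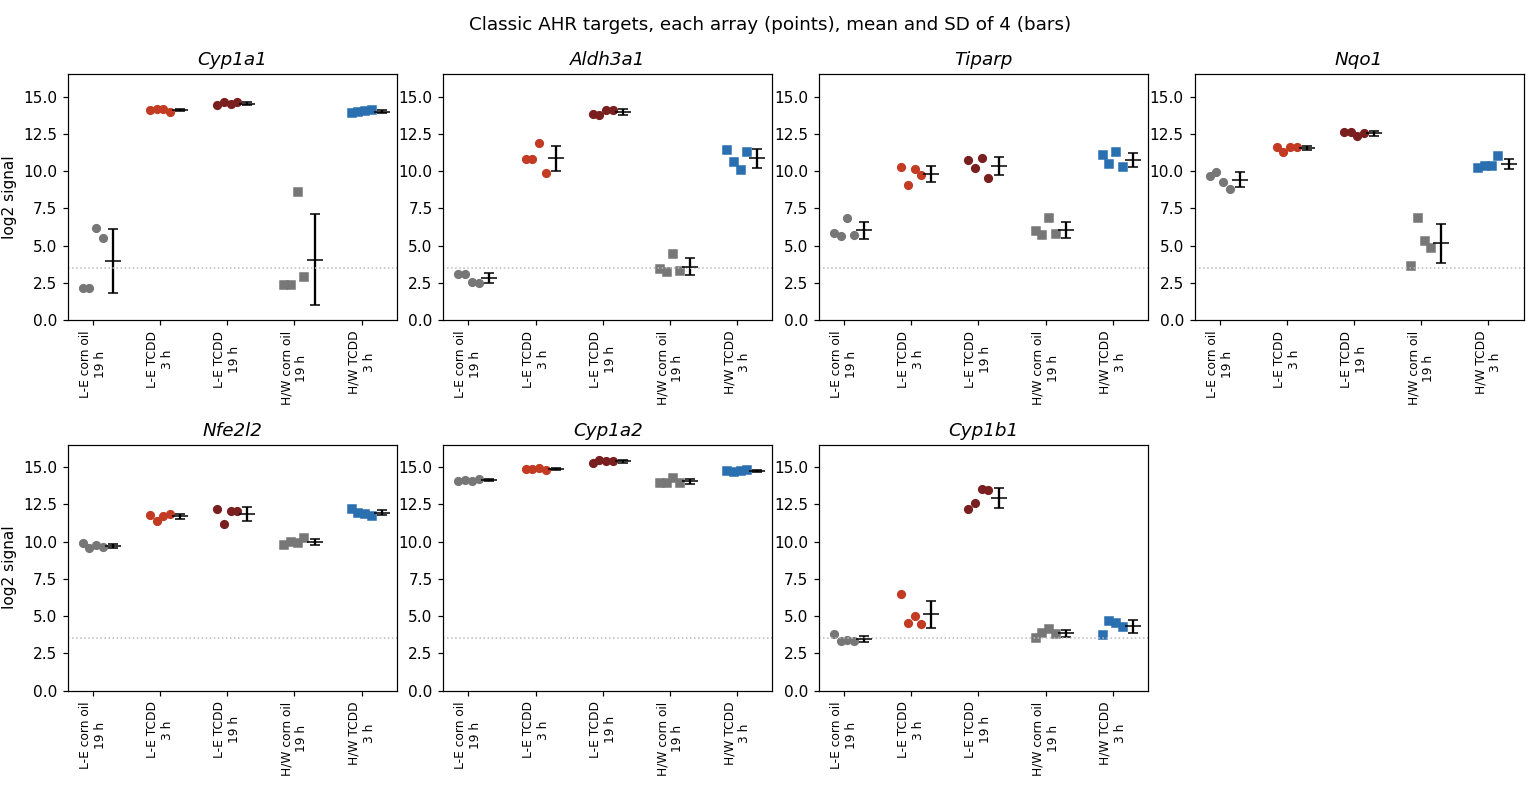
Log2 signal (vertical axis) of the 7 measured classic AHR targets in each array of 5 groups of 4 rats. Points are arrays, bars the mean and SD, and the dotted line the lowest array median (3.52). Cyp1a1 is near 14 in every TCDD array at 3 h and at 19 h, while Cyp1b1 is at 4.45 to 6.46 in L-E rats at 3 h and at 12.21 to 13.55 at 19 h.

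Of 25 measured genes of the wider AHR battery, 9 rose and none fell, with a median of 0.77. Over all genes 1.34% rose and 1.18% fell. The battery includes the 7 classic targets, which gave 6 of its calls and were chosen on arrays used here. In 7 of the 25 genes both group means lay under the lowest array median. The additional members were Exoc3, Cdkn1b and Hes1. Exoc3, a subunit of the exocyst, which tethers vesicles to the plasma membrane, read 7.74, 8.19, 8.07 and 8.02 against 6.42, 6.30, 6.33 and 6.62. The difference was 1.59 ± 0.11 (adjusted p = 0.000758 from limma), and Exoc3 stood higher by 1.60 at 19 h (adjusted p = 0.00238). Its other probe sets gave smaller differences at 3 h, 0.82 ± 0.14 and 1.04 ± 0.14. Cdkn1b, which encodes the cell cycle inhibitor p27, was 0.86 ± 0.11 higher (adjusted p = 0.00565) and its other probe set, at 2.35 in both groups, showed no difference. Hes1, a repressor of the Notch pathway, was 1.73 ± 0.25 higher (adjusted p = 0.00916). The calls of Cdkn1b and Hes1 were lost without any single one of 6 and 7 of the arrays, and after quantile normalization. That of Hes1 was lost after median centring too (adjusted p = 0.0118).

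The receptor and its partners were examined as a list of their own. None of the 14 measured genes of the AHR complex was called (median -0.05). With 2.52% of all genes called, the lack of calls in so short a list is not a result about its members. In 5 of the 14 the TCDD arrays lay under all corn oil arrays, against 8.74% of all genes. Of these 5, Arnt2, Ncoa2 and Ncoa3 had both group means under the lowest array median. Ahr read 3.00, 3.97, 4.16 and 2.97 after TCDD and 2.99, 4.19, 3.91 and 3.92 in corn oil, overlapping and near the array median. Arnt was -0.51 ± 0.12 (adjusted p = 0.0435 from limma) and Hsp90ab1, the chaperone that holds the AHR, -0.43 ± 0.08 (adjusted p = 0.0209). Ptges3, a co-chaperone, was -0.04 ± 0.09 and Cdc37, another chaperone partner, 0.05 ± 0.05. Coactivators measured above the median (Ncoa1, Ep300, Crebbp and Med1) lay between -0.34 and 0.14 with adjusted p of 0.40 or more.

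Among the clock genes, Per2 and Cry2 were called and no activator was. Bmal1 and Clock, the activating pair of the circadian clock, read 5.85 to 6.09 and 8.06 to 8.50 after TCDD and 5.77 to 6.27 and 8.24 to 8.39 in corn oil, overlapping in both cases. Their differences were -0.10 ± 0.11 and -0.07 ± 0.10 (adjusted p = 0.661 and 0.734 from limma). Nfil3, a repressor of D-box genes, was 0.20 ± 0.30 (adjusted p = 0.735). Of the 13 measured clock repressors and D-box factors 2 rose (1.34% of all genes did) and none fell. In 6 both group means lay under the lowest array median, among them Dbp, Tef, Bhlhe41, Csnk1e and Nr1d1. Changes in these are hard to judge at this signal, although Nr1d1 read 5.69 in corn oil replicate 3.

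Per2, a period gene that closes the clock loop and also answers to glucocorticoids and feeding, read 8.17, 7.85, 7.91 and 7.88 after TCDD and 2.89, 2.89, 2.91 and 4.29 in corn oil. The TCDD arrays agreed within 0.15 (SD) and none came near the controls, of which 3 lay on the floor of the scale. The difference was 4.71 ± 0.33 (adjusted p = 0.000757 from limma). At 19 h, with the scan days of the corn oil rats, Per2 read 8.10 to 9.0, a difference of 5.30 (adjusted p = 0.000806). In H/W rats at 3 h the difference was 3.12 (adjusted p = 0.102) and in LnC rats at 19 h 3.45 (adjusted p = 0.0607), neither called.

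Cry2, a partner of the period proteins, read 9.01, 9.07, 8.76 and 8.94 against 7.16, 7.45, 7.93 and 7.71, and rose by 1.38 ± 0.17 (adjusted p = 0.00512). The dimmer of its 2 probe sets gave 0.09 ± 0.07, and the call was lost without any single one of 6 arrays. At 19 h Cry2 was 0.78 lower than at 3 h (adjusted p = 0.0136), and it was 0.60 above corn oil (adjusted p = 0.143 from limma). In LnC rats the difference was 0.12 (adjusted p = 0.958). In the comparisons with controls of the same interval, Cry2 thus had no call, and Per2 was called in L-E rats but not in LnC rats. The L-E comparison at 19 h uses the same corn oil arrays as the one at 3 h. The calls of Per2 at 3 h and 19 h are therefore not independent of each other. Nr1d2, a nuclear receptor that represses Bmal1, was -0.82 ± 0.50, and Bhlhe40, a repressor of clock activators, -0.69 ± 0.46 (adjusted p = 0.398 and 0.431).

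**Figure D2:**
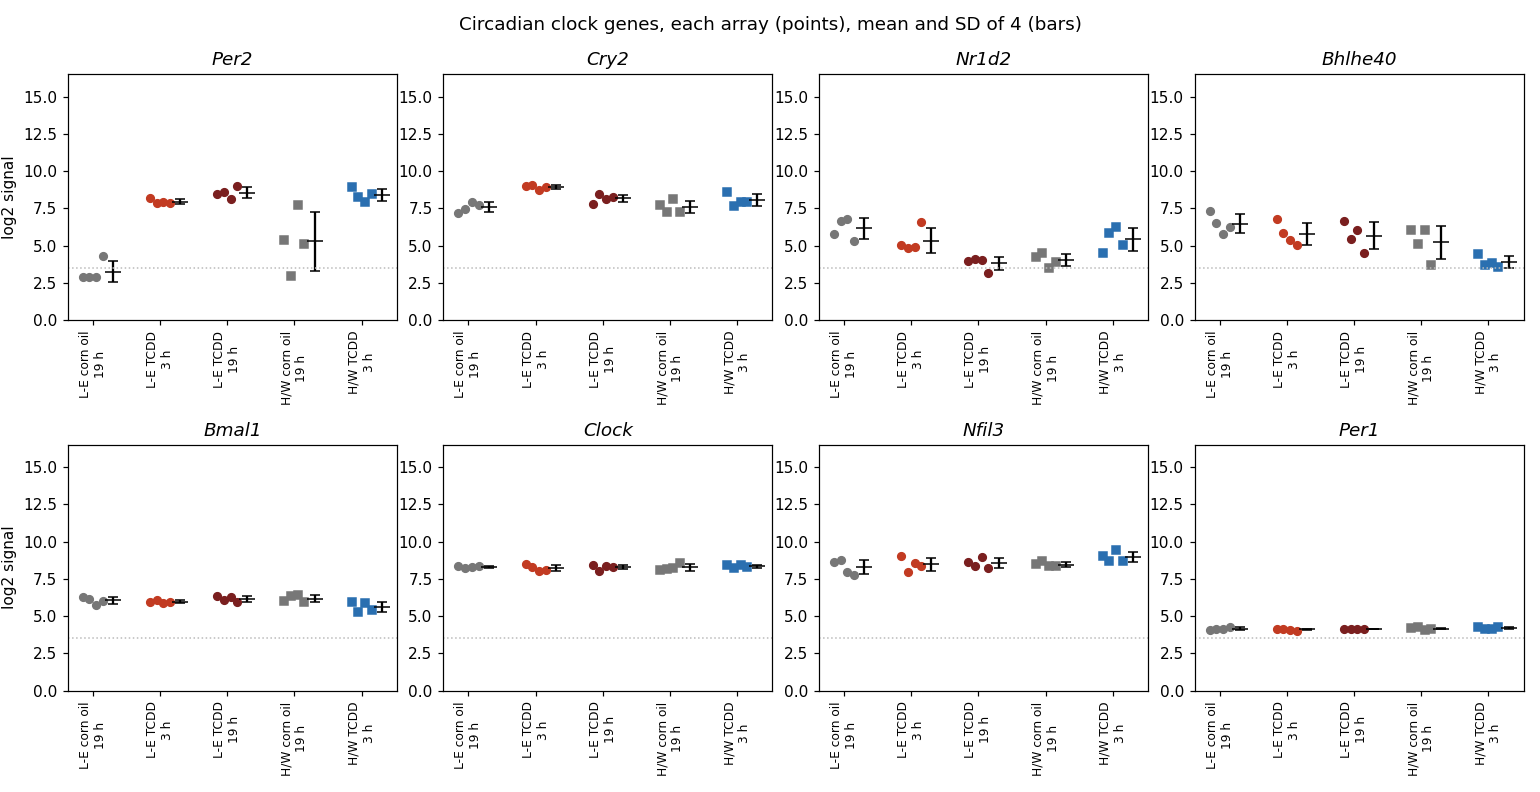
Log2 signal of 8 clock genes in each array of 5 groups of 4 rats, with points for arrays, bars for the mean and SD, and the lowest array median (3.52) as a dotted line. Per2 (7.85 to 8.17) and Cry2 (8.76 to 9.07) lie above all corn oil arrays in L-E rats at 3 h, while Bmal1 and Clock overlap the controls.

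Clock-driven output genes of the liver gave 2 calls of 16 measured, Lpin1 higher and Cyp7a1 lower, with a median of 0.00. Over all genes 2.52% were called. Lpin1 encodes lipin, a phosphatidate phosphatase and coactivator that responds to the clock, fasting and glucocorticoids. It read 10.46, 10.28, 11.00 and 9.96 after TCDD and 7.71, 7.55, 7.01 and 7.54 in corn oil, a difference of 2.98 ± 0.24 (adjusted p = 0.00131 from limma). The difference was 2.99 in H/W rats at 3 h (adjusted p = 0.00183), whereas at 19 h Lpin1 stood 2.24 lower than at 3 h in L-E rats (adjusted p = 0.00495). In LnC rats at 19 h it was 0.91 (adjusted p = 0.293). Alas1, the first enzyme of heme synthesis and another clock output gene, lay just outside the threshold (-1.37 ± 0.20, adjusted p = 0.0101) and was named for that after its values had been seen.

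Genes that rise with feeding held the largest called increase outside the AHR targets, that of Elovl6. Of 19 measured, 2 rose (1.34% of all genes did) and none fell, with a median of 0.64. In H/W rats at 3 h the median of this list was -0.01, and none of its genes was called, while 1.11% of all genes were. The 2 genes called in L-E rats, Elovl6 and Scd, were 2.01 and 2.53 in H/W rats (adjusted p = 0.212 and 0.0613 from limma). Neither difference between the strains was called (adjusted p = 0.2 and 0.665). Elovl6, an elongase of long-chain fatty acids, read 9.50, 10.16, 9.54 and 8.59 after TCDD and 4.83, 4.16, 4.21 and 4.72 in corn oil. All TCDD arrays were several units above all controls, with a difference of 4.97 ± 0.34 (adjusted p = 0.000748 from limma). At 19 h the difference was 3.53 (adjusted p = 0.000934), and in LnC rats 1.69 (adjusted p = 0.0422).

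Scd, the desaturase that makes oleic acid, read 13.46, 13.97, 13.35 and 13.83 against 10.01, 9.40, 8.74 and 10.96. It rose by 3.87 ± 0.45 (adjusted p = 0.00464 from limma), a call lost without any single one of 6 arrays, and it was 2.46 above corn oil at 19 h (adjusted p = 0.0824). Other lipogenic genes missed the threshold. Thrsp, a regulator of lipogenesis, was 1.88 ± 0.41 (adjusted p = 0.0364) and Acaca, the carboxylase that makes malonyl-CoA, 1.47 ± 0.26 (adjusted p = 0.0183). Fasn, the fatty acid synthase, was 0.98 ± 0.37 (adjusted p = 0.171) and Srebf1, the insulin-responsive regulator of these genes, -0.55 ± 0.26 (adjusted p = 0.272). Mid1ip1, which encodes an activator of the Acaca product and a paralog of the Thrsp product, fell in contrast by 2.97 (standard error 0.29, adjusted p = 0.00241), with arrays at 6.36, 7.46, 7.18 and 7.35 against 10.42, 9.54, 10.04 and 10.24. Thrsp, Acaca, Fasn and Srebf1 were named after their values had been seen.

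Genes that rise with fasting gave 1 call of 22 measured, Lpin1 above, with a median of 0.03, while 2.52% of all genes were called. Sds, a serine dehydratase of amino acid breakdown, had one of the largest differences without a call, with arrays at 12.17, 11.03, 10.87 and 9.51 after TCDD and at 4.20, 7.86, 3.22 and 3.31 in corn oil. The arrays did not overlap, and the corn oil arrays spread widely, so that the difference of 6.25 had a standard error of 1.12 (adjusted p = 0.0186 from limma). Sds was 7.2 higher in H/W rats at 3 h (adjusted p = 0.000572), and it read 2.81 to 3.24 in L-E rats at 19 h, 7.79 lower than at 3 h (adjusted p = 0.000527). Pdk4, which shuts glucose out of oxidation, was 2.31 ± 0.38 (adjusted p = 0.0138), Igfbp1, an insulin-repressed binding protein, 3.02 ± 0.73 (adjusted p = 0.0502), and Tat, tyrosine aminotransferase, 1.58 ± 0.25 (adjusted p = 0.0125). Pck1, the gluconeogenic carboxykinase, was -0.15 ± 0.14 (adjusted p = 0.594). Ehhadh, an enzyme of peroxisomal fatty acid oxidation, went the other way (-1.39 ± 0.23, adjusted p = 0.0138), and Cyp4a1 and Cyp4a3, fatty acid hydroxylases, were -1.03 and -0.79 (adjusted p = 0.128 and 0.254). Of the 22 genes, 7 had all TCDD arrays above and 1 all TCDD arrays below the corn oil arrays. Over all genes it was 8.81% and 8.74%. Of the 19 feeding genes, 7 had all TCDD arrays above the corn oil arrays and none had all below. Sds, Pdk4, Igfbp1, Tat, Pck1, Ehhadh, Cyp4a1 and Cyp4a3 were named after their values had been seen. Ehhadh, Cyp4a1 and Cyp4a3 were not part of the later checks of named genes for outlying arrays and other processing.

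Cholesterol synthesis fell in part. Of 18 measured genes 4 fell (1.18% of all genes did) and none rose, with a median of -0.75. In 11 of the 18 the TCDD arrays lay under all corn oil arrays, against 8.74% of all genes. Idi1, the isomerase of the isoprenoid units, read 8.43, 8.40, 8.60 and 8.41 against 11.13, 10.16, 10.47 and 9.91, a difference of -1.96 ± 0.25 (adjusted p = 0.00605 from limma). Its other probe set gave -2.55 ± 0.18. Msmo1, a sterol oxidase, fell by 1.85 (standard error 0.20, adjusted p = 0.00315), Fdft1, squalene synthase, fell by 1.28 (0.18, 0.00808) and Sc5d, a sterol desaturase, fell by 0.72 (0.07, 0.00235). In H/W rats at 3 h the median of the list was -1.31, with 5 lower (0.346% of all genes were). In LnC rats at 19 h none of the 18 was called, and 0.490% of all genes were called lower there. The LnC differences of these 4 genes were -0.73 (Idi1), -0.19 (Msmo1), -0.49 (Fdft1) and -0.63 (Sc5d), none of them called. The call of each of the 4 genes was lost without some single array, for Sc5d without TCDD replicate 2 alone and for the others without any one of 4 to 7 arrays.

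Cyp7a1, the rate-limiting enzyme of bile acid synthesis, had the largest decrease. It read 2.42, 2.60, 2.39 and 2.4 after TCDD, at the floor of the scale, and 8.07, 8.41, 9.54 and 10.70 in corn oil. The difference of -6.73 ± 0.55 (adjusted p = 0.00131 from limma) is therefore limited by that floor. The 4 H/W rats at 3 h were at the same level (2.42 to 2.46), with a difference of -7.69 (adjusted p = 4.76e-06). At 19 h the L-E TCDD rats read 2.45, 8.36, 2.43 and 5.13, spread over most of the range of the controls and the floor, and the difference of -4.59 was not called (adjusted p = 0.118). In LnC rats it was -5.43 (adjusted p = 0.0337).

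Of the 24 genes of bile acid synthesis and transport 3 fell and 1 rose, with a median of -0.09. Over all genes 1.18% fell and 1.34% rose. Nr5a2, a nuclear receptor that activates Cyp7a1, rose from 4.47, 4.19, 4.63 and 4.57 to 6.29, 6.26, 6.22 and 6.49, a difference of 1.85 ± 0.11 (adjusted p = 0.000348 from limma), and by 2.58 in H/W rats (adjusted p = 0.00466). Akr1d1, a reductase of bile acid synthesis, fell by 0.64 (standard error 0.09, adjusted p = 0.00761) and Slco1a1, an uptake carrier, fell by 0.53 (0.08, 0.00913). Among 28 cytochromes P450 of families 2 to 4, Cyp3a2 and Cyp2e1 fell by 0.67 and 0.45 (adjusted p = 0.00976 and 0.00259 from limma). The median of the list was -0.04, and 1.18% of all genes fell. Quantile normalization and median centring each ended the calls of Slco1a1 and Cyp3a2. The calls of Akr1d1 and Cyp3a2 did not survive the loss of any single array, and that of Slco1a1 was lost without any one of 7.

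**Figure D3:**
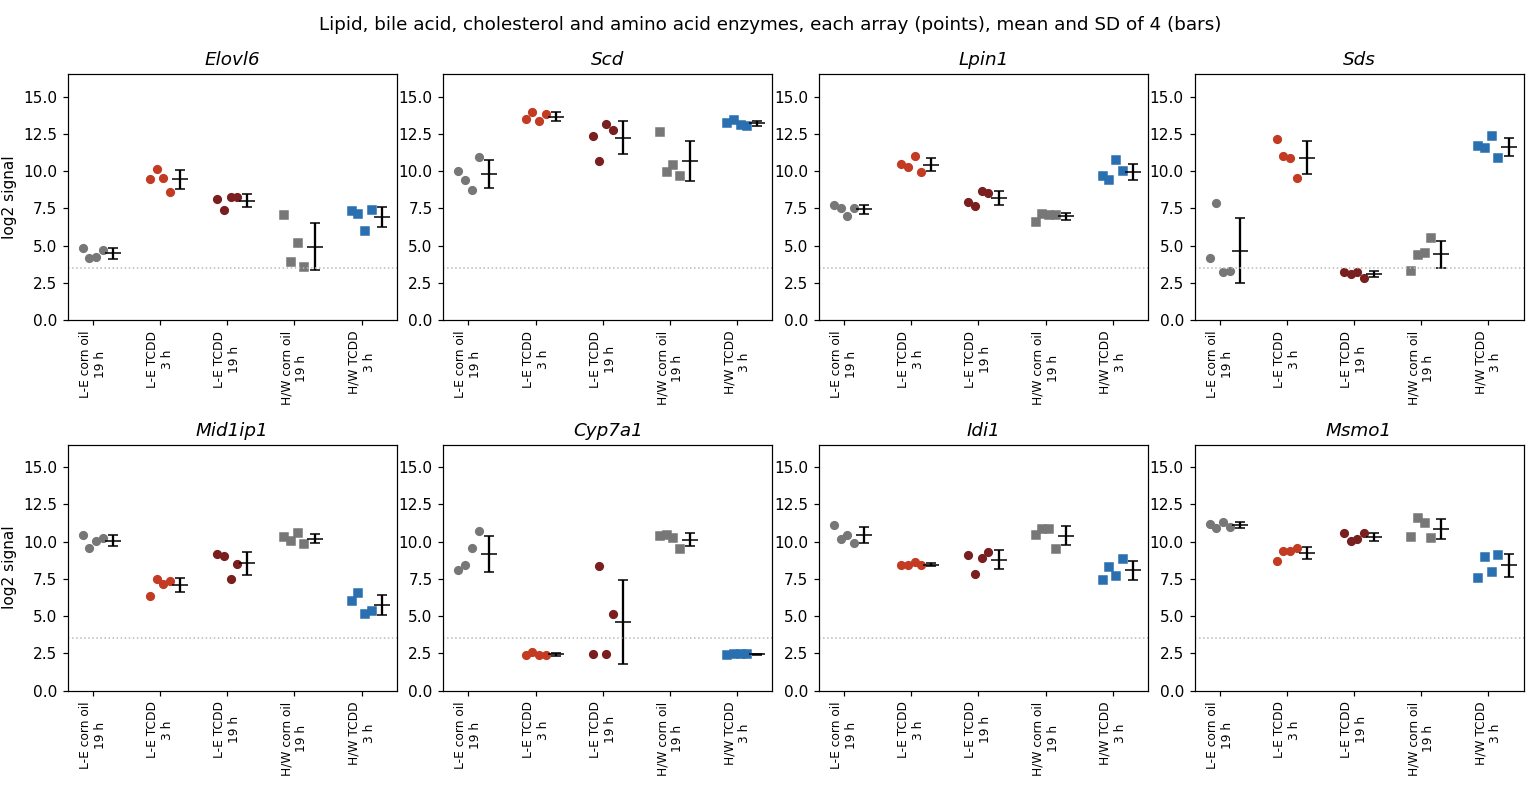
Log2 signal of 8 metabolic genes in each array of 5 groups of 4 rats, with points for arrays, bars for the mean and SD, and the lowest array median (3.52) as a dotted line. Elovl6, Scd, Lpin1 and Sds are above all L-E corn oil arrays at 3 h, and Mid1ip1, Cyp7a1, Idi1 and Msmo1 below them. Sds and Lpin1 stand lower at 19 h than at 3 h.

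Several transcription factors were among the called genes, without forming a list of their own. Cebpa, the factor that maintains the differentiated hepatocyte, read 5.74, 6.39, 6.73 and 7.37 after TCDD and 9.49, 9.21, 9.22 and 9.32 in corn oil, a difference of -2.75 ± 0.32 (adjusted p = 0.00438 from limma). Cebpb, its relative of the acute phase and of fasting, read 11.46, 11.54, 11.22 and 11.33 against 9.39, 9.61, 9.87 and 9.83, a difference of 1.72 ± 0.12 (adjusted p = 0.000817). The 2 factors thus moved in opposite directions, and from 3 to 19 h Cebpa stood 1.88 higher and Cebpb 0.72 lower (adjusted p = 0.0117 and 0.0327, neither called). The call of Cebpa was lost without any single one of 6 arrays and that of Cebpb was not lost.

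Atf5, a stress-responsive factor, fell by 1.84 (standard error 0.14, adjusted p = 0.000901 from limma) to a narrow range of 10.50 to 10.63, and stood 2.41 higher at 19 h (adjusted p = 3.48e-05). Tcf7l2, the effector of Wnt signals, was 2.49 ± 0.18 higher (adjusted p = 0.000901) and 2.16 lower again at 19 h (adjusted p = 0.00158). Nfib and Maf, developmental transcription factors, both fell by 1.55 (adjusted p = 0.00337 and 0.00662), calls that were lost without any single one of 4 and 6 arrays. Other probe sets gave -1.09 and -0.01 for Nfib, -2.28 and -0.08 for Maf and 0.86 for Tcf7l2. These last 3 genes were named after their values had been seen.

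In stress and signalling lists 0 to 2 members were called, and each share rests on so few genes that it cannot be set against the 2.52% of all genes. Srxn1, sulfiredoxin, which restores peroxiredoxins, read 8.85, 8.00, 8.55 and 8.82 against 4.61, 4.64, 4.69 and 5.31, a difference of 3.74 ± 0.24 (adjusted p = 0.000595 from limma), and was 2.07 lower at 19 h than at 3 h (adjusted p = 0.00701). With Nqo1 it made up the 2 calls among 25 NRF2 targets, whose median was 0.03. Rhob, a small GTPase, was the 1 call among 37 immediate early genes (2.39 ± 0.31, adjusted p = 0.0067), of which 16 had both means under the lowest array median. Its call held only without corn oil replicate 4. Sult1e1, an estrogen sulfotransferase and the 1 call among 21 genes induced by glucocorticoids, fell by 0.62 (0.08, 0.00748), while the median of that list was 0.84, and its call held only without TCDD replicate 3. None of 27 heat shock and endoplasmic reticulum stress genes was called (median 0.17), and Cebpb and Cdkn1b were the single calls among 24 acute phase genes (median -0.05) and 30 cell cycle genes (median -0.01).

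**Figure D4:**
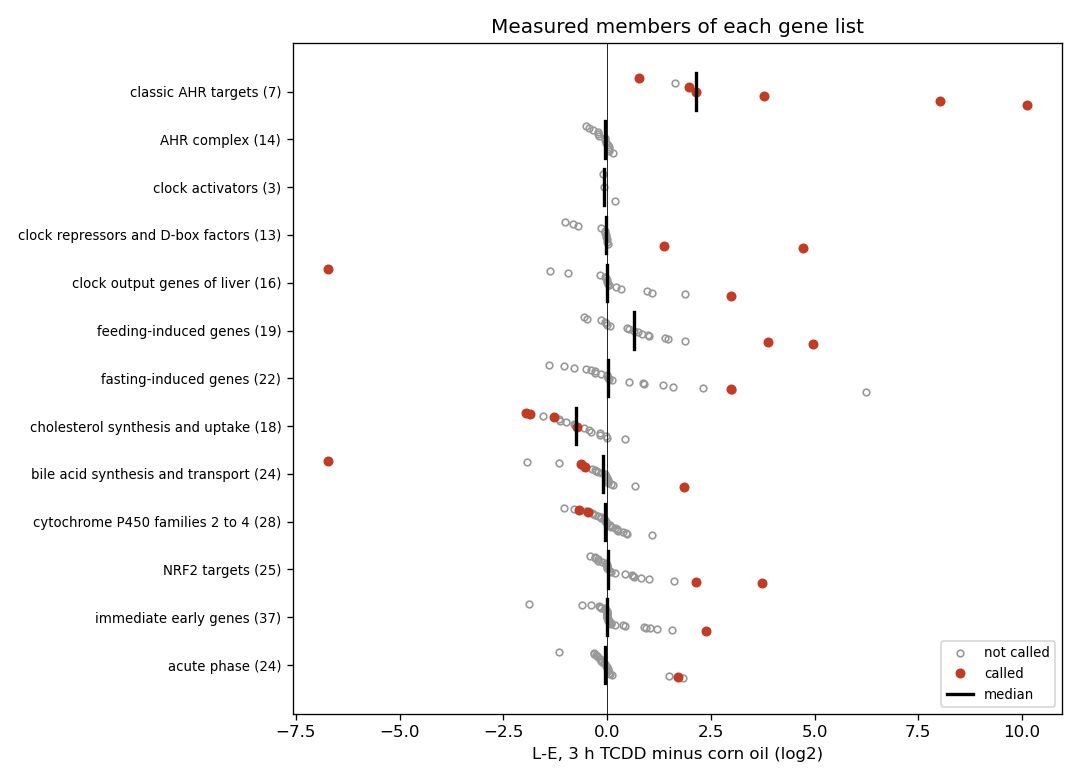
Difference between L-E TCDD rats at 3 h and L-E corn oil rats (horizontal axis, log2) for the measured members of 13 gene lists, with the number of members in brackets. Filled points passed an adjusted p of 0.01 from limma, open points did not, and the black bar is the median of the list, 2.13 for classic AHR targets and -0.75 for cholesterol synthesis and uptake.

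The highest differences also held genes outside these lists. Slc16a6, a monocarboxylate carrier, read 9.08, 8.24, 8.00 and 6.44 against 4.37, 3.82, 3.81 and 4.53, a difference of 3.81 ± 0.54 (adjusted p = 0.00855 from limma). Its signal at 19 h was lower than at 3 h (-3.42, adjusted p = 0.00764). Its other probe set gave 3.87 ± 0.39. Eml4, a microtubule-binding protein, was 3.25 ± 0.24 higher (adjusted p = 0.000901) and Eva1a, a regulator of autophagy, 3.18 ± 0.34 (adjusted p = 0.00337). Among the largest decreases R3hdm2 fell by 2.05 (0.26, 0.00644), Slc13a3, a dicarboxylate carrier, fell by 1.62 (0.22, 0.00773), Hnrnpul1, a nuclear RNA-binding protein, fell by 1.59 (0.16, 0.00259) and Gda, guanine deaminase, fell by 1.58 (0.19, 0.00524). A second probe set of Gda gave -0.05 ± 0.17, so the size for this gene depends on the probe set. When single arrays were left out, the calls of Slc16a6 and R3hdm2 held only without TCDD replicate 4, those of Slc13a3 and Gda only without corn oil replicate 1 or 2, and those of Eva1a and Hnrnpul1 were lost without any one of 3 arrays.

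The smallest p-values came from genes with tight replicates. Slc20a1, a phosphate carrier, read 8.78, 8.82, 8.73 and 8.67 after TCDD and 6.0, 6.40, 6.14 and 6.23 in corn oil (2.55 ± 0.08, adjusted p = 5.6e-05 from limma). Ube4b, a ubiquitin ligase, was 2.17 ± 0.07 higher (adjusted p = 5.6e-05) and Mavs, an adaptor of antiviral signalling, 0.87 ± 0.03 (adjusted p = 6.03e-05). Tada1, a subunit of a histone acetyltransferase complex, was 2.62 ± 0.12 higher and Fbxo31, which targets proteins for degradation, 2.59 ± 0.12 (adjusted p = 0.000203 for each). By 19 h Mavs stood 0.69 lower (adjusted p = 0.0037), while Ube4b and Fbxo31 differed by -0.20 and -0.22 (adjusted p = 0.269 and 0.472). All 5 calls remained without any single array.

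Whether the early differences are common to rats of another strain was asked with H/W rats, which share no array with the L-E comparison but have the same gap in interval and scan day. In H/W rats 116 genes (1.11%) were called, 80 higher (0.768%) and 36 lower (0.346%). Of the 139 genes higher in L-E rats 34 were higher in H/W rats too, which is 24.5% of the L-E genes and 42.5% of the H/W genes. For lower genes it was 9 of 123, or 7.32% and 25.0%. The sign in H/W rats was the same for 128 of 139 (92.1%) and 118 of 123 (95.9%), while 31.9% of all genes were above and 68.1% below zero there, and no gene was called in opposite directions. The shared count of 43 lay between 21 and 59 when 1 array was left out of either comparison, and it was 95 with the lowest 40% of genes left out, 260 in 1 fit over all groups, 23 after median centring, 24 with scan day as a block and 0 with a replicate block.

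A test of the difference between the strains called 6 of 10411 genes (0.0576%) and 33 at an adjusted p under 0.05. A call in L-E rats without one in H/W rats is thus not by itself a difference between the strains. Mpzl1, an adhesion and signalling protein, read 5.44, 5.69, 5.66 and 5.58 in L-E TCDD rats and 3.76, 3.25, 3.26 and 3.37 in L-E corn oil rats (2.18 ± 0.12), and 3.01 to 3.29 and 2.35 to 3.10 in H/W rats (0.54 ± 0.16). The difference of the responses was 1.65 ± 0.21 (adjusted p = 0.00896 from limma), although all H/W values and the L-E corn oil mean (3.41) lie under the lowest array median. The others were ribosomal protein genes, Rpsa, Rpl22, Rpl7a, Rps16 and Rps23, with differences of 0.42 to 0.58 (adjusted p = 0.00896 for each). None of the 6 remained after quantile normalization or median centring. Elovl6 had a difference between strains of 2.96 (adjusted p = 0.2) and Cyp7a1 of 0.96 (adjusted p = 0.695).

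**Figure D5:**
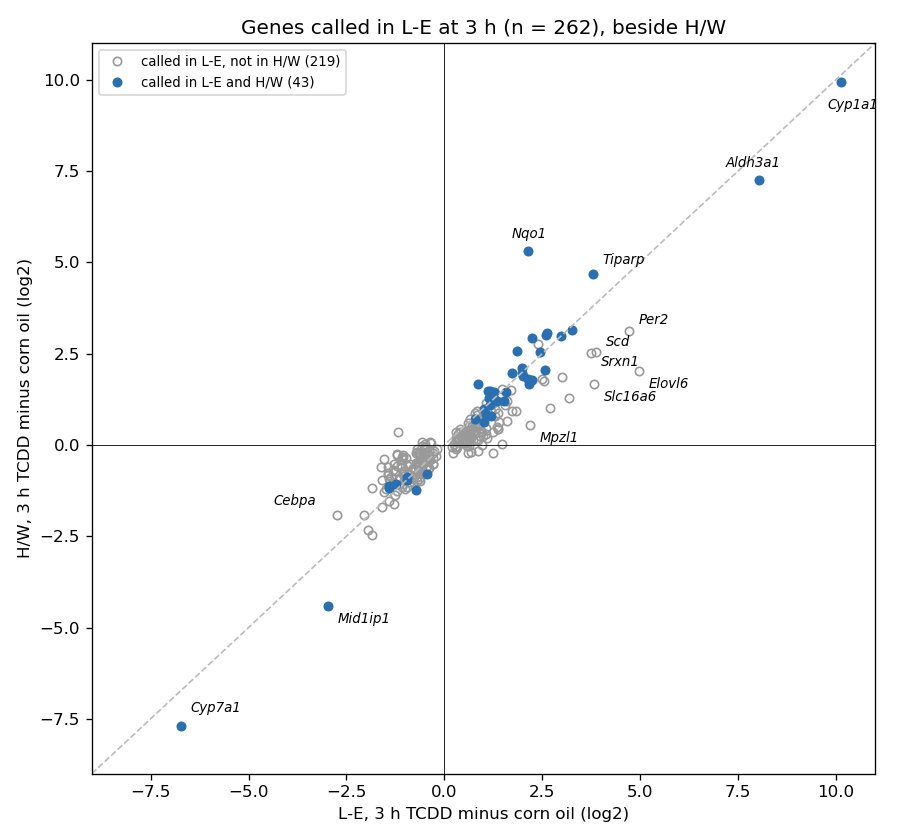
Each point is one of the 262 genes called in L-E rats at 3 h, with its log2 difference from corn oil in L-E rats (horizontal) and in H/W rats (vertical). Filled points (43) were called in both strains and open points in L-E rats alone, and the dashed line marks equal values. Cyp1a1 and Cyp7a1 stand at the ends, Nqo1 above the line and Elovl6 below it.

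The LnC comparison, chosen after the data had been seen, gave another set of values, since its controls were taken at the same interval and scanned on the same day. In LnC rats at 19 h 118 genes (1.13%) were called, 67 higher (0.644%) and 51 lower (0.490%). Among them were 20 of the 139 genes higher in L-E rats at 3 h (14.4% of the L-E genes and 29.9% of the LnC genes), with 4 of the 123 lower genes (3.25% and 7.84%). The shared count of 24 lay between 13 and 20 when 1 array of the L-E comparison was left out, and became 45 with the lowest 40% of genes left out and 104 in 1 fit over all groups. All 7 classic AHR targets were called higher in LnC rats, which their choice on these arrays had fixed. Neither Per2 nor Cry2 was called there, nor any of the 22 fasting genes, and 1 of the 19 feeding genes was. With 1.13% of all genes called in LnC rats, so few calls are not a result about these lists. Per2 and Cry2 differed there by 3.45 and 0.12 (adjusted p = 0.0607 and 0.958 from limma). A missing call is thus not by itself a missing difference.

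Called higher in L-E rats at 3 h, H/W rats at 3 h and LnC rats at 19 h were 14 genes, and none was called lower in all. They were, of the classic targets chosen on the LnC arrays, Cyp1a1, Cyp1a2, Aldh3a1, Tiparp, Nqo1 and Nfe2l2, and Eml4, Ube4b, Fbxo31, Adamts1, Ceacam1, Csk, Fam8a1 and Pkdcc. Adamts1, a secreted protease, was 2.23 ± 0.24 higher in L-E rats at 3 h (adjusted p = 0.00337 from limma) and Ceacam1, an adhesion molecule that aids insulin clearance, 1.17 ± 0.08 (adjusted p = 0.000748). Csk, a kinase that restrains Src, was 1.15 ± 0.16 higher (adjusted p = 0.00808), and Pkdcc, a secreted kinase, 1.97 ± 0.19 (adjusted p = 0.00235). Fam8a1, a membrane protein, read 10.58, 10.67, 10.83 and 10.74 against 9.59, 9.79, 9.62 and 9.82 (1.0 ± 0.07, adjusted p = 0.000833), and rose by a further 1.75 at 19 h (adjusted p = 3.48e-05). Adamts1, Ceacam1, Csk, Fam8a1 and Pkdcc were named after their values had been seen, and the calls of Adamts1 and Csk were lost without any single one of 4 and 8 arrays.

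A direct comparison of L-E TCDD rats at 19 and 3 h called 421 genes (4.04%), 194 higher (1.86%) and 227 lower (2.18%) at 19 h, with interval and scan day differing as before. Of the 7 classic AHR targets, 5 were among the higher genes and none among the lower. The study chose these 7 with the help of the same L-E TCDD arrays at 19 h, so this direction is not independent evidence. Inmt, an amine methyltransferase, read 8.97, 8.11, 9.02 and 8.19 at 3 h and 9.56, 8.42, 8.45 and 9.46 in corn oil, overlapping (-0.40 ± 0.36, adjusted p = 0.577 from limma), but 3.40 to 4.77 at 19 h, 4.63 lower than at 3 h (adjusted p = 0.000915). Selenbp1, a selenium-binding protein, and Chka, choline kinase, stood at 0.77 and 1.5 above corn oil at 3 h (adjusted p = 0.0302 and 0.0398), and at 2.43 and 2.89 at 19 h (adjusted p = 0.000188 and 0.00384). From 3 to 19 h Selenbp1 rose by 1.66 (adjusted p = 0.00238), while the step of 1.39 for Chka missed the threshold (adjusted p = 0.0306). Lpin1, Srxn1, Slc16a6 and Tcf7l2 were called at 3 h and were lower again at 19 h. Crip2, a LIM-domain protein, was -0.52 at 3 h (adjusted p = 0.0133), and Klf10 and Pik3r1 were 0.10 and 0.04 (adjusted p = 0.923 and 0.747). Inmt was named after its values had been seen.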

How the data were processed

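Livers of L-E rats 3 h after TCDD and of L-E corn oil rats at 19 h (4 and 4 arrays of 40) were compared with the log2 values deposited by the authors, made per the submitters' processing notes with R 2.3.1, affy 1.10.0 and GCRMA 2.4.1, although RMA is named in the study's methods. Groups came from sample titles. The array holds 15923 probe sets. Without 57 controls, 12783 of 15866 had 1 gene symbol, 312 several and 2771 none. This gave 10411 genes. For the 1868 with several probe sets, the one brightest on average in these 8 arrays was taken. Entrez IDs of 10378 genes were in RefSeq, with 0 changed symbols. No filter on low signals was used, and 0 sample columns were left unused. Scan days were read from the scanner's experiment files.

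Each contrast was fitted with limma 3.58.1 in R 4.3.3 on its own arrays (16 for the strain difference), with Benjamini-Hochberg adjustment over 10411 genes and a call at 0.01. Means are given with SD where so named, and other ± values are standard errors of limma. The number of arrays limits precision, and p-values measure the spread between rats of 1 cage per group. Members and lists were chosen with earlier results of these data known, and the LnC comparison was added after the data had been seen. Named genes were the 10 largest called differences in each direction, the members of AHR and clock lists, up to 6 called members of other lists, genes of the study's RT-PCR and dioxin-target tables, up to 6 called strain differences and the 6 smallest p-values; others are marked. Motifs were searched on both strands of RefSeq GRCr8 windows. Scripts were tested on simulated data. Alternatives were other probe set rules, scalings, filters, fits, blocks and thresholds, and leaving out each array.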

Additional observations from a re-analysis of the deposited data

Results flagged for a closer look

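Among 98 named genes, 18 of 196 groups of 4 arrays held 1 array far from the other 3 (by Dixon's gap criterion), where chance gives about 1 in 20. Of these, 7 lie in the TCDD arrays at 3 h and 11 in the corn oil arrays, and 2 of the 11 are corn oil replicate 1, the array with a scan day of its own.

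In corn oil, replicate 4 stood apart for Per2 at 4.29 (others 2.89 to 2.91), Srxn1 at 5.31 (4.61 to 4.69) and Ceacam1 at 10.15 (9.95 to 9.98). Replicate 3 did for Tiparp at 6.85 (5.64 to 5.84), Nr1d1 at 5.69 (1.78 to 1.84), Ncoa2 at 3.16 (2.47 in all others) and Pik3r1 at 2.38 (2.22 to 2.24). Replicate 1 did for Eml4 at 5.94 (6.77 to 6.88) and Cyp1b1 at 3.79 (3.35 to 3.39), and replicate 2 for Fdft1 at 10.49 (10.90 to 10.95) and Ncoa3 at 1.42 (1.44 to 1.45).

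At 3 h, replicate 2 stood apart for Cyp7a1 at 2.60 (2.39 to 2.42) and Nqo1 at 11.31 (11.61 to 11.64), and replicate 3 for Idi1 at 8.60 (8.40 to 8.43) and Pck1 at 12.56 (12.91 to 12.94). Replicate 1 did for Arnt at 3.73 (3.52 to 3.55), and replicate 4 for Rela at 6.04 (5.62 to 5.66) and Nr1d2 at 6.56 (4.82 to 5.01).

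The response at 3 h differed between L-E and H/W rats by the test of the difference itself (limma, adjusted p = 0.00896 for each) in Mpzl1 by 1.65, Rps16 by 0.58, Rpl7a by 0.48, Rps23 by 0.46, Rpsa by 0.45 and Rpl22 by 0.42. For Rpsa the difference was 0.23 in L-E rats (adjusted p = 0.00987) and that of H/W rats was -0.22 (adjusted p = 0.0514).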

How the results depend on the processing

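No alternative reversed the direction of a call among the 98 named genes. The 262 genes of L-E rats at 3 h became 431 with the lowest 40% of genes left out, 746 in 1 fit over all 10 groups, 1465 with scan day as a random block (consensus correlation -0.23), 118 with a minimum log2 difference of 1 and 878 at 0.05. Replicate numbers come from the labels and do not pair these arrays (correlations -0.15 to 0.06, no array best with its own number); blocking on that number left 0 calls by limma (2218 at an unadjusted p under 0.05), and all 53 named calls were lost. Without 1 array the count was 99 to 214, and 25 of the 53 named calls remained without any single array.

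The 116 genes of H/W rats became 186 with low genes left out, 594 in the fit over all groups, 27 with scan day as a block, 496 at 0.05, 59 after median centring and 3 with the replicate block; without 1 array it was 49 to 175. The 6 strain differences became 3 with array weights, 20 in the fit over all groups, 1 with the minimum difference, 33 at 0.05 and 0 with mean or every probe set, low genes left out, quantile normalization, median centring, limma's trend or the replicate block (935 to 1183 at an unadjusted p under 0.05), and 0 to 4 without 1 array. The 421 genes between 19 and 3 h became 889 in the fit over all groups, 156 with scan day as a block, 142 with the minimum difference, 1040 at 0.05, 52 with the replicate block, and 175 to 342 without 1 array. Of calls higher in L-E rats at 3 h the share was 53.1%, 39.1% after quantile normalization and 58.4% after median centring; between 19 and 3 h it was 46.1%, 58.1% and 37.4%.

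Named calls of L-E rats at 3 h were also lost after quantile normalization (Slc16a6, Hes1, Slco1a1, Cyp3a2, Cdkn1b, Csk, Rpsa) and median centring (Hes1, Fdft1, Sult1e1, Slco1a1, Cyp3a2, Rpsa). Signals near the lowest array median (3.52) limit the size of the differences of Aldh3a1, Per2, Cyp7a1 and Mpzl1, each with a group mean under it, and of Cyp1a1, with 2 such corn oil arrays. The cause of these changes was not tested.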
